A study of Mus musculus with 6 samples.

Results

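Circular RNAs (circRNAs) of Pde4d and Fkbp5 are described here through the days of white adipogenesis. The members are 2 of the 3662 circRNAs in the count table, mmu_circ_0004451 of Pde4d and a circRNA of Fkbp5 without a circBase name, called circ_Fkbp5 here. They were chosen by their values in these libraries, as circRNAs that stood out between the stages, and 0 further circRNAs overlapped them on the same strand. The levels of these 2 circRNAs are therefore given as a description, and nothing is concluded from a test of them. The table holds 3 other circRNAs of the same genes, mmu_circ_0004450 of Pde4d, and mmu_circ_0006655 and mmu_circ_0006654 of Fkbp5, which the rule did not use.

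The cultures were started from the inguinal white fat of female mice 6 weeks old, C57BL/6 in the labels and C57BL/6J in the methods, using the stromal vascular fraction (SVF), which is what remains of fat tissue without its adipocytes. D0 was the proliferation stage, before any hormone was added. D4 followed 4 days in the induction cocktail, in which the labels give dexamethasone at 0.3 mM, isobutylmethylxanthine (IBMX) at 0.63 mM and insulin at 2.85 mM. The unit of these 3 is printed as given. For insulin and dexamethasone it is higher than is usual for this cocktail and could not be checked here. D8 followed 4 more days in maturation medium with 200 nM insulin and 10 nM triiodothyronine (T3), without dexamethasone and IBMX. Each stage had 2 replicates, and the RNA of all 6 libraries was depleted of rRNA and digested with RNase R, which removes linear RNA. No genotype other than the strain is given. The growth medium held 20% serum per the labels, a value that differs from the one in the methods. The methods give less serum in the induction and maturation media than in growth medium, so serum changed together with the hormones. SVF also holds endothelial cells, pericytes and fibroblasts, so the cultures were not a pure preadipocyte line. In bulk samples such as these, fewer cells of a type and less RNA per cell cannot be told apart.

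A circRNA forms when the 3′ end of an exon is spliced backwards to the 5′ end of that exon or of one upstream, and reads across this back-splice junction are what was counted. Pde4d encodes a phosphodiesterase that breaks down cyclic AMP (cAMP), the second messenger of adrenergic and other hormone receptors. IBMX inhibits most phosphodiesterases, so cAMP accumulates during induction. Fkbp5 encodes FKBP51, a co-chaperone of HSP90 that sits in the glucocorticoid receptor complex and lowers its affinity for hormone. Fkbp5 is a well-known target gene of the glucocorticoid receptor, for which dexamethasone is a strong agonist.

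The back-splice junctions are what distinguishes each circle from its linear counterpart, so they are shown first. Each is read 5′ to 3′ on the strand of the gene from the mm9 genome, with the end of the circle in lower case and its start in capitals. The junctions of both circles with untranslated bases are shown with 15 bases on each side, and the other 3 with 60.
mmu_circ_0004451 (Pde4d): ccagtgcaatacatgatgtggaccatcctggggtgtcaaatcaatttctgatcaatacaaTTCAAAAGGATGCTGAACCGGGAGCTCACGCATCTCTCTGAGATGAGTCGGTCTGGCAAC
mmu_circ_0004450 (Pde4d): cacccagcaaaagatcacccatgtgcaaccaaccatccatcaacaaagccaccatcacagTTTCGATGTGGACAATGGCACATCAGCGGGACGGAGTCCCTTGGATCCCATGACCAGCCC
circ_Fkbp5 (Fkbp5): agttggcattcccagGTCCTTAGGATTCTG
mmu_circ_0006655 (Fkbp5): gagcaacggtaaaagGTCTTCTACTTACAA
mmu_circ_0006654 (Fkbp5): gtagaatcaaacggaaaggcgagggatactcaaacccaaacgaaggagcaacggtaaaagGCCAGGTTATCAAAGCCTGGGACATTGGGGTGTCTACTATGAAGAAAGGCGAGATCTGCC

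The Pde4d circle mmu_circ_0004451 spans chr13:110724076-110729569 on the plus strand of mm9, within the Pde4d gene (ENSMUSG00000021699.10) at chr13:109240142-110743669. Its ends coincide with the start of exon 9 and the end of exon 13 of the 17 exons of transcript Pde4d-001. If all exons between the ends are retained, the circle has 5 exons and 631 bases, all of them coding, with a GC content of 47.5%. The exons are of 94, 173, 99, 165 and 100 bases, and are shown because they make up the whole predicted circle.
Pde4d exon 9: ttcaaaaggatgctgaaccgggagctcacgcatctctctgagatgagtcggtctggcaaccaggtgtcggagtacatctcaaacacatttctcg
Pde4d exon 10: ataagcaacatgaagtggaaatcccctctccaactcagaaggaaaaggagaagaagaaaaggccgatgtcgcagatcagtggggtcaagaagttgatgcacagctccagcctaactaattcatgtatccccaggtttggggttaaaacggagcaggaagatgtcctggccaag
Pde4d exon 11: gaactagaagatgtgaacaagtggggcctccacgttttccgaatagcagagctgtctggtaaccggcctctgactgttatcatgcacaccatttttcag
Pde4d exon 12: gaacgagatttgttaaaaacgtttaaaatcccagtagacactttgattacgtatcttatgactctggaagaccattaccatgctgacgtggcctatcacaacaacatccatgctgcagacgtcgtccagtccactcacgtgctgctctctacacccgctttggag
Pde4d exon 13: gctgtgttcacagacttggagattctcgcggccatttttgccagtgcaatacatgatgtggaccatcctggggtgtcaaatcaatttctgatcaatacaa

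The other Pde4d circle, mmu_circ_0004450, lies upstream at chr13:110530595-110562888 and joins exon 7 to exon 4, with 353 coding bases. The 2 Pde4d circles have no exon in common. The exons of mmu_circ_0004451 are in 10 of the 11 annotated coding transcripts of Pde4d, and those of mmu_circ_0004450 are in 7. All 7 transcripts that hold the second circle also hold the first. The other 3, Pde4d-011, Pde4d-013 and Pde4d-014, start between both circles, at positions 110693314, 110715271 and 110717052 of chromosome 13, and can supply mmu_circ_0004451 alone.

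In Fkbp5 the member lies apart from the coding exons. The circle circ_Fkbp5 is a single exon of 234 bases at chr17:28644181-28644414 on the minus strand of mm9, within the Fkbp5 gene (ENSMUSG00000024222.9) at chr17:28536040-28654469. It is exon 2 of the 14 exons of Fkbp5-004 and consists of 5′ untranslated sequence, with a GC content of 57.7%. This exon is in 1 of the 3 coding transcripts, the one that starts farthest upstream at position 28654469. The other 2 coding transcripts start downstream of it. By contrast, mmu_circ_0006655 (chr17:28565297-28577998, exons 2 to 5 of Fkbp5-001, 529 bases of which 508 are coding) and mmu_circ_0006654 (chr17:28565297-28566308, exons 4 and 5, 258 coding bases) are in all 3. These 2 circles share exons 4 and 5 and end at the same base. At all 5 circles both ends matched annotated exon ends, with AG before the first base and GT after the last.

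**Figure D1:**
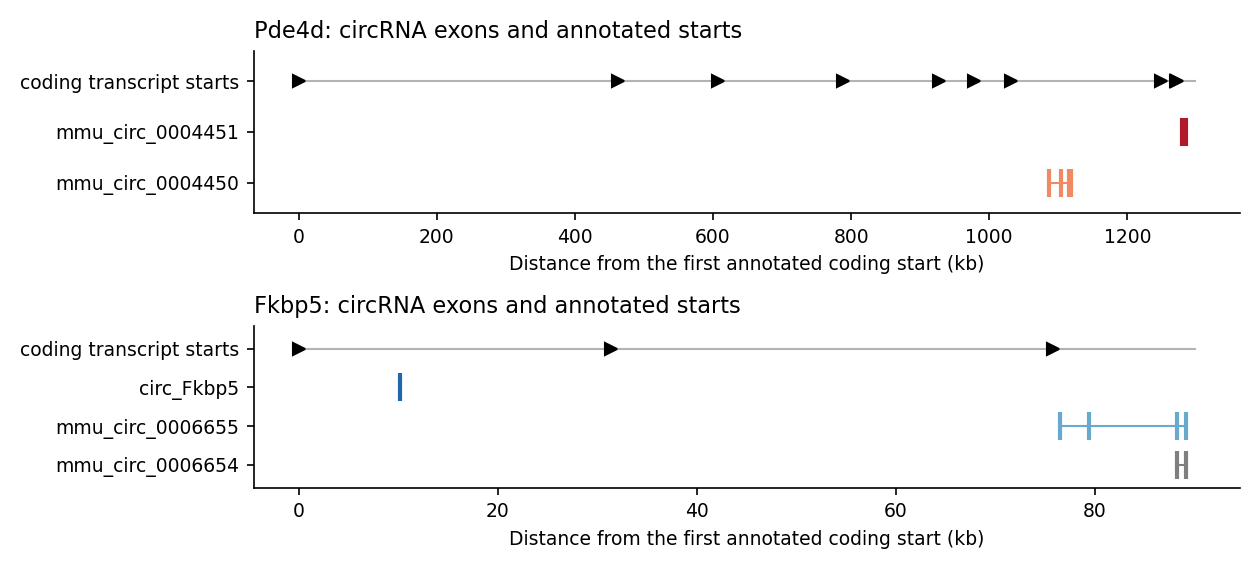
Exons of the 5 circRNAs (vertical ticks, joined by a line) and annotated starts of the coding transcripts that hold them (triangles), drawn to scale against the distance in kb from the first such start of Pde4d (top) and Fkbp5 (bottom). The circle mmu_circ_0004451 lies downstream of all 10 starts shown for Pde4d, while circ_Fkbp5 lies downstream of 1 of the 3 starts of Fkbp5.

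The 250 bases before each annotated coding start were searched for the letters of the cAMP response element (CRE, TGACGTCA), its half-site (TGACG) and the palindromic glucocorticoid response element (GRE, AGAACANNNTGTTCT). Both strands were searched, and a full CRE holds the half-site within it. The full CRE and the full GRE were found in 0 of the windows before transcripts that hold a circle of these genes, against 1.87% and 0.00653% of all 45975 windows of the annotation. The half-site occurred before Fkbp5-004, 216 bases upstream, before Pde4d-013, 15 bases upstream, and at a pair of places before Pde4d-005. It occurred in 20.0% of all windows. A match describes letters and no binding, and the absence of one says only that these letters are not in the window.

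The libraries held 30110 to 32310 back-splice reads for D0, 41658 to 43069 for D4 and 45371 to 50672 for D8. Levels are in circCPM, which scales the reads of each library to a total of 1000000, and a single read was worth between 19.7 and 33.2 circCPM. The table holds no value of exactly 1 read, and a value listed as 0 may stand for a single read. Of the 3662 circRNAs 1407 passed the filter on low counts and were tested with edgeR's quasi-likelihood test, including both members and the 3 other circles of the same genes.

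The Pde4d circle mmu_circ_0004451 was high on D4 alone. The D0 libraries had 7 and 13 reads of it, the D4 libraries 119 and 126, and the D8 libraries 9 and 9. The level was 232 and 402 circCPM in the D0 libraries, 2763 and 3025 in the D4 libraries, and 198 and 178 in the D8 libraries. Both D4 libraries thus stood far above the other 4, and the D8 libraries lay below both D0 libraries. The stage means were 317 ± 120, 2894 ± 185 and 188 ± 14.7 circCPM in this order (SD, n = 2). On D4 the circle ranked 43rd and 37th among all 3662 circRNAs of its libraries, and on D8 1132nd and 1260th. From pooled reads the level on D4 was 9.02-fold that on D0, with a 95% exact counting interval of 5.72 to 15, and 15.4-fold that on D8 (9.56 to 26.5). The level on D8 was 0.585 of that on D0, with an interval of 0.292 to 1.16. Since the reads carry no molecular identifiers, these intervals cover counting error only.

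circ_Fkbp5 followed another course and was highest on D8. Its reads numbered 0 and 3 in the D0 libraries, 30 and 21 in the D4 libraries, and 93 and 88 in the D8 libraries. These correspond to 0 and 92.9 circCPM at D0, 697 and 504 at D4, and 2050 and 1737 at D8. The stages did not overlap, with each D4 library above both D0 libraries and each D8 library above both D4 libraries. The means were 46.4 ± 65.7, 600 ± 136 and 1893 ± 221 circCPM (SD, n = 2). On D8 the circle ranked 63rd and 80th of all circRNAs. The level on D8 was 3.13-fold that on D4 (95% exact counting interval 2.28 to 4.36). Against D0, where 3 reads in 1 library were all that was counted, the level was 12.5-fold on D4 (4.05 to 62.7) and 39.2-fold on D8 (13.2 to 192).

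The 2 circles therefore differed in what followed the change of medium. Both were higher on D4 than on D0. Between D4 and D8 dexamethasone and IBMX were left out, insulin was lowered per the labels and T3 was added. On D8 the Pde4d circle was lower than on D4 in both libraries, and the Fkbp5 circle higher in both. The agents were withdrawn and added at the same time as the cells matured, so the medium and the stage cannot be told apart, nor can the agents of the cocktail from each other.

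**Figure D2:**
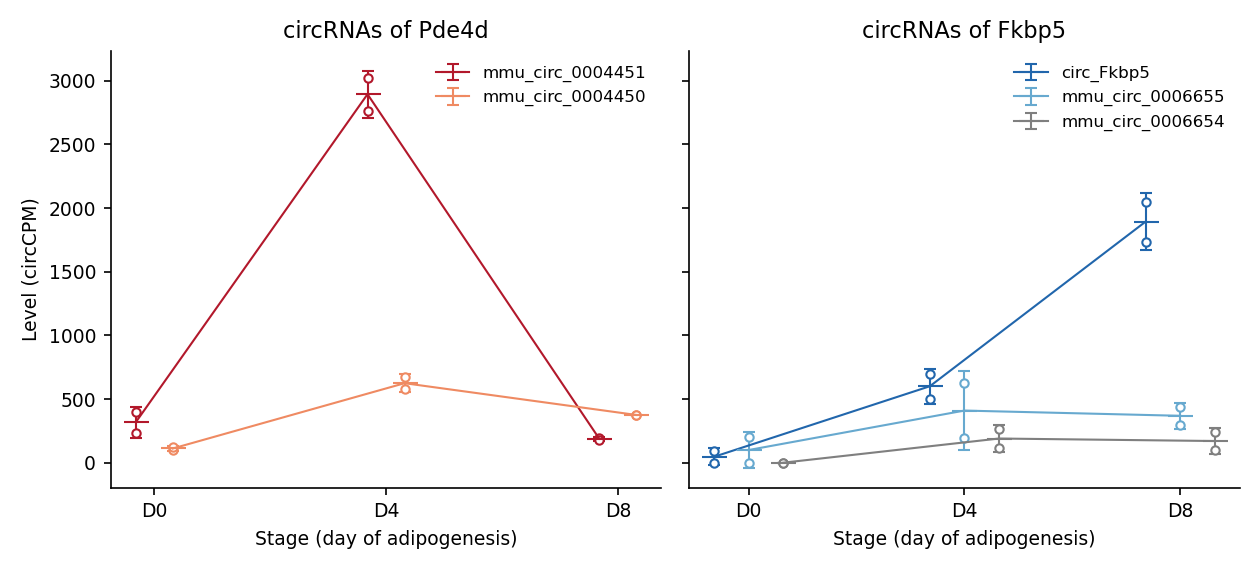
Level in circCPM of the Pde4d circRNAs (left) and the Fkbp5 circRNAs (right) on D0, D4 and D8. Open circles are the 2 libraries of a stage, horizontal ticks the mean, bars the SD and lines join means. mmu_circ_0004451 sits between 2763 and 3025 on D4 and at or below 402 elsewhere, and circ_Fkbp5 between 1737 and 2050 on D8.

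In the fit over all tested circRNAs, the log2 fold change of mmu_circ_0004451 was 3.26 ± 0.40 (SE) from D0 to D4 and -3.92 ± 0.41 from D4 to D8, and that of circ_Fkbp5 was 3.66 ± 0.80 and 1.66 ± 0.55. From D0 to D8 the log2 fold changes were -0.66 ± 0.44 and 5.31 ± 0.77. With 1 library left out, those of circ_Fkbp5 against D0 ranged from 2.78 to 7.68 for D4 and from 4.44 to 9.34 for D8, the lower values without D0 replicate 1 and the upper without D0 replicate 2. The medians over all 1407 were 0.03 from D0 to D4, -0.01 from D4 to D8 and 0.05 from D0 to D8. At an adjusted p of 0.05, edgeR called 2.2% of the tested circRNAs higher and 1.07% lower on D4 than on D0. These 46 calls became 4 without D4 replicate 1 and 4 without D4 replicate 2, so the share depends on single libraries. On D8 edgeR called 1.21% higher and 0.284% lower than on D0. These 21 calls became 51 with DESeq2 and 0 with edgeR on both stages fitted alone, so this share depends on the setting. From D4 to D8 edgeR called 0% higher and 0.0711% lower. The latter is 1 circRNA, and nothing is read from its being mmu_circ_0004451, since this contrast chose it. The unadjusted p was below 0.05 for 172 circRNAs in that comparison, and DESeq2 called 6 higher and 5 lower. These shares are background only, as the same contrasts chose the members. By fitted change, mmu_circ_0004451 was the 70th highest of the 1407 from D0 to D4 and the 28th lowest from D4 to D8, and circ_Fkbp5 was the 63rd highest from D0 to D4, the 129th highest from D4 to D8 and the 56th highest from D0 to D8. All 27 circRNAs with a lower fitted change than mmu_circ_0004451 from D4 to D8, and all 55 with a higher one than circ_Fkbp5 from D0 to D8, were listed at 0 in both libraries of a stage of the pair. So were 56 of the 69 above mmu_circ_0004451 from D0 to D4, but 35 of the 128 above circ_Fkbp5 from D4 to D8.

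**Figure D3:**
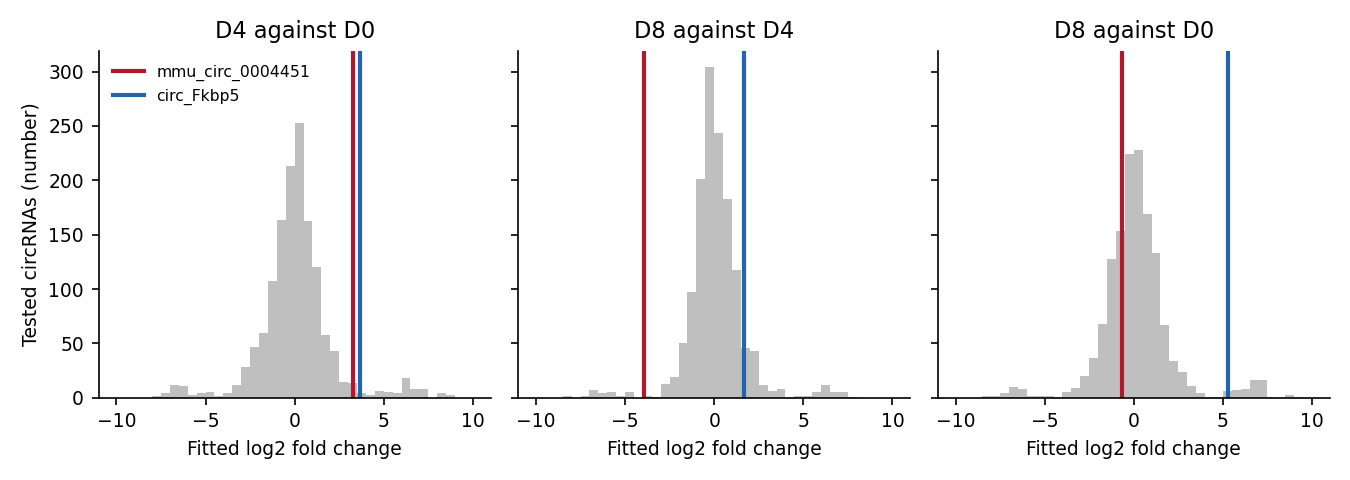
Fitted log2 fold changes of the 1407 tested circRNAs (grey bars, number in bins of width 0.5 on the log2 scale) for the 3 pairs of stages, with mmu_circ_0004451 and circ_Fkbp5 as vertical lines. The lines lie close together from D0 to D4, at 3.26 and 3.66, and on opposite sides of 0 from D4 to D8, at -3.92 and 1.66.

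The other circles of the same genes were not used by the rule. mmu_circ_0004450 of Pde4d had 3 and 4 reads in the D0 libraries, 29 and 24 in those of D4, and 17 and 19 in those of D8. Its mean was 112 ± 17.1 circCPM for D0, 625 ± 68.7 for D4 and 375 ± 0.192 for D8 (SD, n = 2), so the stages did not overlap and D8 lay between D0 and D4. The log2 fold changes were 2.54 ± 0.59 from D0 to D4 (edgeR adjusted p = 0.0653), -0.73 ± 0.50 from D4 to D8 (edgeR adjusted p = 0.619) and 1.81 ± 0.59 from D0 to D8 (edgeR adjusted p = 0.151). None of these passed the threshold. From pooled reads, the level was 5.58-fold on D4 that on D0 (95% exact counting interval 2.53 to 14.5) and 0.599 on D8 of that on D4 (0.381 to 0.932). On D8 it was 3.34-fold that on D0 (1.47 to 8.9), whereas mmu_circ_0004451 was at 0.585.

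Of Fkbp5, mmu_circ_0006655 had 6 and 0 reads in the D0 libraries, 27 and 8 in those of D4, and 20 and 15 in those of D8. Its levels were 99.6 ± 141, 409 ± 307 and 368 ± 102 circCPM (SD, n = 2), and a D4 library lay below both D8 libraries and below a D0 library. The log2 fold changes were 2.12 ± 1.18 from D0 to D4 (edgeR adjusted p = 0.381), -0.15 ± 1.0 from D4 to D8 (edgeR adjusted p = 0.973) and 1.97 ± 1.18 from D0 to D8 (edgeR adjusted p = 0.42). With 1 library left out, the changes from D0 ranged from 1.0 (without D4 replicate 1) to 7.16 for D4 and from 0.99 (without D0 replicate 2) to 7.01 for D8, both upper values without D0 replicate 1, the D0 library that held its reads. mmu_circ_0006654 was listed at 0 in both D0 libraries, and had 5 and 11 reads on D4 and 11 and 5 on D8. Its log2 fold change from D4 to D8 was -0.14 ± 1.19 (edgeR adjusted p = 0.977), and no fold is given against D0. With these few reads, the pooled ratio of D8 to D4 was 0.882 for both circles, with intervals of 0.536 to 1.45 and 0.413 to 1.88. These intervals hold counting error alone, and the SEs of the fit, which include the spread between libraries, are wider.

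The make-up of the back-splice reads of each gene therefore differed between stages. mmu_circ_0004451 held 74.1% of the Pde4d reads on D0 (20 of 27 reads, 95% Wilson interval 55.3 to 86.8%) and 82.2% on D4 (245 of 298, 77.5 to 86.1%). On D8 it held 33.3% (18 of 54, 22.2 to 46.6%), with 34.6% and 32.1% in the libraries, and mmu_circ_0004450 was the more abundant circle. circ_Fkbp5 held 50.0% of the Fkbp5 reads on D4 (51 of 102, 40.5 to 59.5%) and 78.0% on D8 (181 of 232, 72.3 to 82.9%). On D0 Fkbp5 had 9 back-splice reads in all, and the share was 0% in one library and 100% in the other. The pooled 33.3% and its interval of 12.1 to 64.6% therefore describe neither library, and Wilson intervals too cover counting error only. The levels summed over the circles of a gene were, for Pde4d, 332 and 526 circCPM in the D0 libraries, 3436 and 3601 in the D4 libraries, and 573 and 553 in the D8 libraries. For Fkbp5 they were 199 and 92.9, then 1440 and 960, and last 2733 and 2131. These shares rest on the values that chose the members, and no test of them is given. The level of the linear mRNA was not analysed here, so a change in transcription cannot be told apart from one in circularization or stability.

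**Figure D4:**
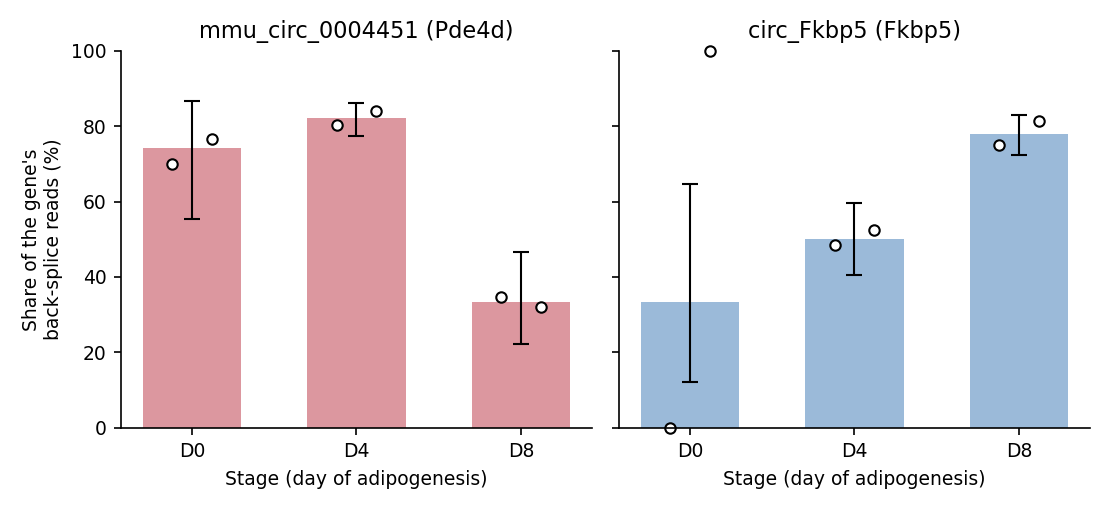
Share of the back-splice reads of Pde4d in mmu_circ_0004451 (left) and of Fkbp5 in circ_Fkbp5 (right) on D0, D4 and D8, in percent of pooled reads (bars) with 95% Wilson intervals; open circles are the 2 libraries. The Pde4d share is 82.2% on D4 and 33.3% on D8, and the Fkbp5 share 50.0% and 78.0%.

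The circRNAs of other genes whose levels were most like each member were found by Pearson's r over the 6 libraries on log2(circCPM + 10). The libraries of a stage share that stage, so the coefficients are a description. For mmu_circ_0004451 the nearest was circ_Glcci1 (r = 0.98), whose gene is named glucocorticoid induced 1. It had 9 and 13 reads at D0, 35 and 43 at D4, and 16 and 13 at D8, and was thus highest on D4 in both libraries. The next 4 were listed at 0 in all D0 and D8 libraries, so they passed the filter on low counts through D4 alone. A shared peak on D4 follows from the choice by r. They were circ_Bmper (12 and 14 reads on D4, r = 0.978), from the gene of a secreted BMP-binding protein, and circ_Abi1 (11 and 14 reads, r = 0.978), from that of an actin regulator. Zfx mmu_circ_0016408 (43 and 36 reads, r = 0.977) and circ_Nfia (19 and 11 reads, r = 0.972) came from transcription factor genes. In all, 20 of 1405 circRNAs had r above 0.9 with mmu_circ_0004451, and the median r was 0.0554.

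For circ_Fkbp5 the nearest was mmu_circ_0000875 of Fbn2, the gene of the matrix protein fibrillin-2 (r = 0.993). It had 5 and 15 reads at D0, 51 and 50 at D4, and 89 and 76 at D8. circ_Selenbp1 of a selenium-binding protein followed (r = 0.987) with 0 and 4, 20 and 12, and 116 and 84 reads. Ebf1 mmu_circ_0003037 (r = 0.985), from the gene of an adipogenic transcription factor, had 3 and 9, 19 and 24, and 34 and 36 reads. Atxn3 mmu_circ_0003665 (r = 0.98), from a deubiquitinase gene, and circ_Clec2d (r = 0.973), from that of a lectin-like protein, completed the 5. Each of these 5 had a higher mean on D4 than on D0 and a higher mean on D8 than on D4. They were chosen by r, so this shared order follows from the choice and is no result. A coefficient above 0.9 was found for 50 of 1404 circRNAs, with a median r of -0.0428. Leaving out 1 library kept 0 to 4 of the 5 for circ_Fkbp5 and 2 to 4 for mmu_circ_0004451. For circ_Fkbp5, omitting D0 replicate 1 left 0 of the 5, as did omitting D0 replicate 2, and omitting D8 replicate 1 left 2, so the names depend on single libraries.

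**Figure D5:**
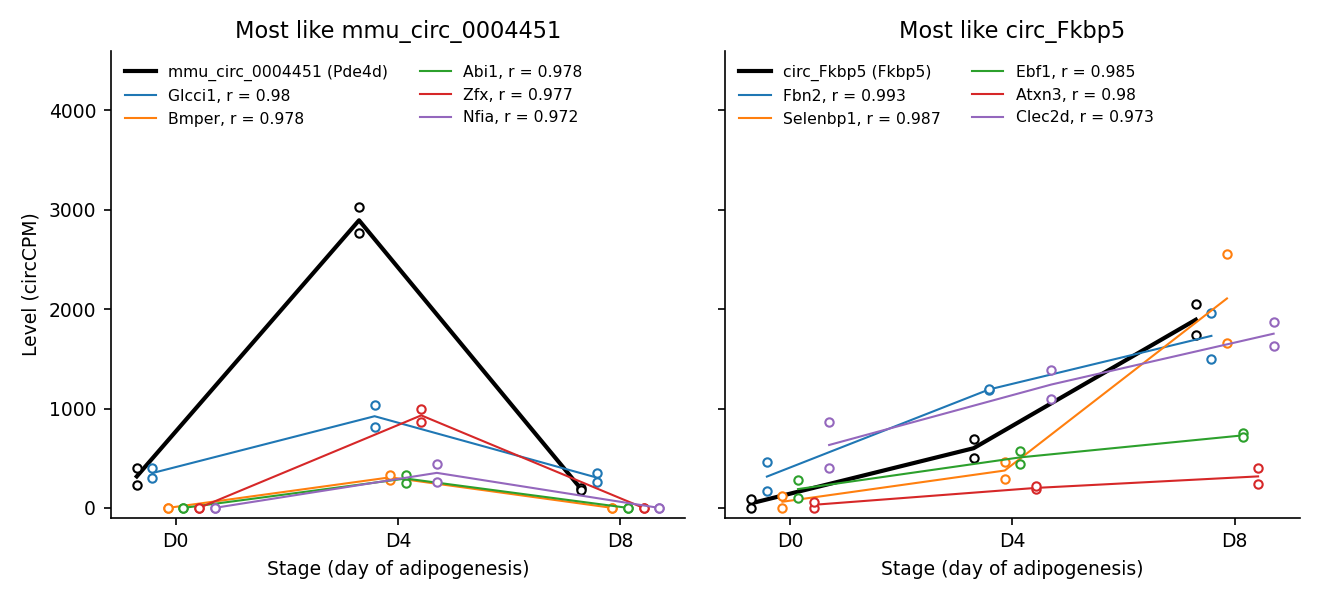
Level in circCPM on D0, D4 and D8 of mmu_circ_0004451 (left, black) and circ_Fkbp5 (right, black) with the 5 circRNAs of other genes with the highest Pearson r to each (colours); open circles are libraries and lines join the means of the stages. All 6 patterns on the left are highest on D4 and all 6 on the right on D8, which follows from choosing them by r.

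The other genes of both pathways were followed by lists. Of 21 cyclic nucleotide phosphodiesterase genes 7 had circRNAs, Pde4d among them. The genes other than Pde4d had 10 circRNAs, of which 4 were tested, and 0 of these 4 passed edgeR's threshold in any pair of stages. With at most 2.2% of all tested circRNAs called in a direction, a count of 0 of 4 tells nothing of the list. Their median log2 fold change was -0.69 from D0 to D4 and 1.02 from D4 to D8, against 0.03 and -0.01 over all tested. circ_Pde4a, of another cAMP-specific enzyme, had 5 and 9 reads at D0, 7 and 17 at D4, and 14 and 34 at D8 (log2 fold change 0.44 ± 0.76 from D0 to D4, edgeR adjusted p = 0.827). The most abundant circle of Pde3a, of the cGMP-inhibited family, had 15 and 0, 6 and 6, and 15 and 18 reads. That of Pde8a, a family that IBMX does not inhibit, had 11 and 0, 9 and 0, and 20 and 20. Pde5a mmu_circ_0001165, of a cGMP-specific enzyme, had 10 and 8, 3 and 7, and 13 and 0. In each of these 4 circles a D4 library lay at or below a D0 library in circCPM. circ_Pde7b had reads on D4 alone (3 and 6) and circ_Pde8b on D0 alone (2 and 6), both too few for the test.

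The wider cAMP signalling list, with adenylyl cyclases, G proteins, protein kinase A, its anchors and CREB family factors, had circRNAs in 13 of 47 genes. Of its 19 circRNAs 7 were tested, and 0 were called by edgeR, at a background of at most 2.2%. None of the 7 came from a cyclase, G protein, protein kinase A or anchor gene. Their median log2 fold change, which does not describe those genes, was 1.16 from D0 to D4 and 0.45 from D4 to D8. The level summed over all 19 showed no such order, at 3126 to 4019 circCPM in the D0 libraries, 3715 to 3961 in the D4 libraries and 3473 to 3659 in the D8 libraries. The most abundant, Rapgef6 mmu_circ_0003133, averaged 796 ± 187, 1682 ± 540 and 948 ± 250 circCPM at D0, D4 and D8 (SD, n = 2), with an edgeR adjusted p of 0.155 from D0 to D4. The gene is that of a guanine nucleotide exchange factor for Rap. Other tested circles of the list had a negative fitted change from D0 to D4, Creb1 mmu_circ_0000046 of -2.13, with 22 and 2 reads in the D0 libraries, and Ep300 mmu_circ_0005874 of -1.4, and neither was called.

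For Fkbp5, the list of the glucocorticoid receptor, its chaperones and coregulators had circRNAs in 8 of 20 genes, Fkbp5 among them. The genes other than Fkbp5 had 14 circRNAs, of which 5 were tested and 0 called by edgeR, as the background of at most 2.2% would give, and the medians were -0.12 from D0 to D4 and -0.18 from D4 to D8. The receptor gene Nr3c1, both cytosolic HSP90 genes and Fkbp4, the co-chaperone that opposes FKBP51, had no circRNA in the table. The corepressor gene Ncor1 gave mmu_circ_0003216, with 19 and 29 reads at D0, 46 and 41 at D4, and 20 and 46 at D8 (log2 fold change 0.51 ± 0.47 from D0 to D4, edgeR adjusted p = 0.619). The coactivator gene Ncoa3 gave mmu_circ_0009572, with 10 and 4, 6 and 0, and 25 and 27 reads, and a log2 fold change from D4 to D8 of 2.89 ± 1.11 (edgeR adjusted p = 0.32). The most abundant circles of Ncoa1 and Ncoa2 and of Smarca4, a remodelling ATPase, and Hspa4, an HSP70 family chaperone, had at most 18 reads in any library.

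Genes known to be induced by glucocorticoids had circRNAs in 7 of 26, again with Fkbp5 among them. The others had 14 circRNAs, of which 5 were tested, with medians of 0.75 from D0 to D4, 0.36 from D4 to D8 and 1.26 from D0 to D8. Of these 5, 1 was called, beside 2.2% of all tested circRNAs called higher from D0 to D4 and 1.21% from D0 to D8. The circles that were not called included Pik3r1 mmu_circ_0004400 (log2 fold change 0.03 from D0 to D4, edgeR adjusted p = 0.994), Pik3r1 mmu_circ_0004399 (0.74, edgeR adjusted p = 0.467) and Foxo3 mmu_circ_0002207 (0.75, edgeR adjusted p = 0.634). A circle of Zbtb16 at chr9:48525388-48551666 was not called either, and was listed at 0 in both D0 libraries. That circle had 17 and 3 reads at D4 and 9 and 33 at D8. Its edgeR adjusted p was 0.148 from D0 to D4 and 0.128 from D0 to D8, and no fold is given against D0. The one called was another circle of Zbtb16, the gene of the transcription factor PLZF, at chr9:48525388-48641204. It had 2 and 0 reads at D0, 34 and 35 at D4, and 47 and 53 at D8. Its mean rose from 33.2 ± 47.0 circCPM at D0 to 815 ± 35.9 at D4 and stood at 1041 ± 7.1 at D8 (SD, n = 2). The log2 fold change was 4.62 ± 0.81 from D0 to D4 (edgeR adjusted p = 0.0334) and 4.97 ± 0.81 from D0 to D8 (edgeR adjusted p = 0.0329). With 1 library left out these ranged from 3.66 (without D0 replicate 2) to 8.14 (without D0 replicate 1) and from 4.02 to 8.5, with the same omissions. With 2 reads on D0, the pooled ratios were 25.4-fold (95% exact counting interval 6.77 to 214) and 32.5-fold (8.76 to 272). From D4 to D8 the log2 fold change was 0.36 ± 0.54 (edgeR adjusted p = 0.858), and the interval of the pooled ratio was 0.931 to 1.76. The called Zbtb16 circle was thus higher than D0 at both later stages, as circ_Fkbp5 was, and not lower on D8 than on D4. The call from D0 to D4 was lost without D4 replicate 1 (edgeR adjusted p = 0.0916) and without D4 replicate 2 (edgeR adjusted p = 0.126), and that from D0 to D8 with the same omissions (edgeR adjusted p = 0.0503 and 0.0545) and when D0 and D8 were fitted alone (edgeR adjusted p = 0.0954).

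The lists for insulin signalling (17 of 30 genes, 18 circRNAs tested) and thyroid hormone signalling (7 of 15 genes, 5 tested) had 0 circRNAs called by edgeR in any pair of stages, where at most 2.2% of all tested were called in a direction. Their medians from D4 to D8, when the medium changed, were -0.27 and -0.6, against -0.01 over all tested. The insulin receptor circle mmu_circ_0014773 averaged 1710 ± 493, 2108 ± 368 and 3909 ± 644 circCPM (SD, n = 2), with an edgeR adjusted p of 0.0902 from D0 to D8.

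Markers of cell types were checked beside the members. Of 29 adipocyte genes 8 had circRNAs, whose summed level was 650 to 963 circCPM at D0, 1974 to 2088 at D4 and 4657 to 4871 at D8. Defining adipocyte genes such as Fabp4, Adipoq and Plin1 had no circRNA in the table, and 1 of the 4 tested circRNAs was called, beside 1.21% of all tested called higher from D0 to D8. This was a circle of Mlxipl, the gene of the glucose-responsive factor ChREBP, which was listed at 0 in both D0 libraries and was at least 23.4-fold higher on D8, taking a floor of 3 reads over D0 (edgeR adjusted p = 0.0269). That call was lost when D0 and D8 were fitted alone (edgeR adjusted p = 0.0948). The summed adipocyte level moved in the same order of stages as circ_Fkbp5, and its part in that pattern was not tested. Preadipocyte and fibroblast genes had circRNAs in 3 of 18, with a summed level of 970 to 1512 circCPM over all libraries. Of the 4 circRNAs 3 were tested and 0 called by edgeR, beside at most 2.2% of all tested called in a direction. Their median log2 fold change was -0.82 from D0 to D4, -0.49 from D4 to D8 and -1.5 from D0 to D8. The most abundant, Zfp521 mmu_circ_0007146, averaged 612 ± 121, 1217 ± 146 and 865 ± 256 circCPM at D0, D4 and D8 (SD, n = 2). Fbn1 mmu_circ_0009294 averaged 425 ± 319, 224 ± 44.8 and 88.8 ± 126, and circ_Pdgfra 288 ± 31.0, 34.8 ± 49.3 and 93.4 ± 7.43. The other Fbn1 circle, which was not tested, had 4 and 0 reads at D0, 0 and 0 at D4, and 9 and 8 at D8. Marker genes of endothelial (10), immune (10), pericyte and smooth muscle (8) and mesothelial cells (5) had 0 circRNAs in the table, so these cell types could not be followed here.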

How the data were processed

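SVF cells of mouse inguinal fat were sampled on D0, D4 and D8, with 2 replicates per stage. The authors trimmed reads with fastp, aligned them to mm9 with BWA-MEM and called circRNAs with CIRI2. They deposited raw counts of back-splice reads per circRNA and library, without normalization. Each circRNA had at least 2 reads in both replicates of a stage. The submitters' processing notes also name FastQC 0.11.9 and HISAT2 2.2.0. The deposited table gives in addition a circRNA length, which is not a level and was not used.

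The members and gene lists were chosen with earlier results of these data known. Groups follow the labels. Exons and transcripts were taken from the mm9 release of GENCODE matched to Ensembl 65, with positions counted from base 1. Levels are circCPM from column totals (30110 to 50672 reads). Stages were compared in R 4.3.3 by the quasi-likelihood test of edgeR 4.0.16 over all 6 libraries, with TMM normalization, the low-count filter filterByExpr (count 10, total 15) and adjustment by Benjamini-Hochberg over 1407 circRNAs at 0.05. The common dispersion was 0.219. Pairs of stages were contrasts of this fit, and SE is the log2 fold change over the square root of F. The edgeR fit of D4 against D0 was also run on simulated data, and nothing reported here rests on that run. The replicates are biological per the paper, without more detail, so p-values measure the spread between these samples. Alternatives were a replicate block, DESeq2 1.42.0, RLE factors, unscaled column totals, other count filters (none, or a mean of 5), fits of 2 stages alone and each library left out.

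Named circRNAs were the members, all others of both genes, the 5 of other genes most like each member, every list circRNA called in a pair of stages, and the most abundant circRNA of each gene of the phosphodiesterase and receptor lists. Circles outside this rule (of Rapgef6, Creb1, Ep300, Pik3r1, Foxo3 and the insulin receptor) were named after their values were seen. So were those of Zfp521, Fbn1 and Pdgfra, and the tested circle of Zbtb16 that was not called. One circRNA that the rule names is not reported here. The qPCR and mRNA data of the study were not used here.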

Additional observations from a re-analysis of the deposited data

How the results depend on the processing

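The counts of circRNAs called depended on the setting. Across the 3 stages edgeR called 16, against 5 with column totals alone, 396 without a filter on low counts, 5 with a mean of 5 or more counts, 83 with DESeq2, 4 with a replicate block and 2 to 58 with 1 library left out. From D0 to D4 the 46 calls became 71 with DESeq2, 17 with the replicate block, 76 with both stages fitted alone and 4 to 67 with 1 library left out, with 4 without D4 replicate 1 and 4 without D4 replicate 2. From D4 to D8 the 1 call became 11 with DESeq2, 0 with the replicate block by edgeR (141 at an unadjusted p below 0.05) and 0 to 15 with 1 library left out, 15 without D8 replicate 2. From D0 to D8 the 21 calls became 51 with DESeq2, 4 with the replicate block, 0 with edgeR on both stages fitted alone (204 at an unadjusted p below 0.05) and 11 to 27 with 1 library left out. Where a library was left out, the lone library of its stage was assumed to vary like the others. The cause of these differences was not tested. Whether same-numbered libraries came from the same mice is not stated. Their deviations correlated at 0.0348, 0.0703 and 0.047 over the 1407 circRNAs. With few reads for most circRNAs, such values cannot exclude pairing.

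For the members, the fitted log2 fold changes kept their direction under the alternatives run; for mmu_circ_0004451 from D0 to D8 the fit of both stages alone gave no value, as it did not pass the filter there. For mmu_circ_0004451 they ranged from 2.96 to 3.72 from D0 to D4 and from -4.00 to -3.83 from D4 to D8, and for circ_Fkbp5 from 2.78 to 7.68 and from 1.43 to 1.96. From D0 to D8 they ranged from -0.96 to -0.19 and from 4.44 to 9.34. Of these, 7.68 and 9.34 come from leaving out the D0 library that held the 3 reads of circ_Fkbp5 on D0, and 1.96 from leaving out D4 replicate 1. The D4 to D8 change of mmu_circ_0006654 turned to 0.54 without D4 replicate 2 and 0.38 without D8 replicate 2, and ranged down to -0.92 over the libraries left out. That of mmu_circ_0006655 turned to 0.10 with the replicate block, 0.99 without D4 replicate 1 and 0.10 without D8 replicate 2, and ranged down to -0.77. Levels with the TMM library size were 304, 2953 and 192 circCPM for mmu_circ_0004451 and 44.2, 613 and 1939 for circ_Fkbp5. With the replicate block the Zbtb16 calls had an edgeR adjusted p of 0.0613 from D0 to D4 and 0.0697 from D0 to D8, and the Mlxipl call 0.0572. These alternatives for the list circRNAs were added after seeing the data. Over them the adjusted p ranged from 0.00693 to 0.126, from 0.00395 to 0.0954 and from 0.000879 to 0.0948. Of the 5 circRNAs most like each member, Spearman's rho kept 1 for circ_Fkbp5 and 0 for mmu_circ_0004451.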
